A study of Mus musculus with 12 samples.

Results

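The core circadian clock loop was described here through 9 listed genes, Arntl, Clock, Npas2, Per1, Per2, Per3, Cry1, Cry2 and Ciart, a list of gene names. Of these, 8 had a probe set that the platform annotation assigns to 1 gene symbol, among 22180 genes so named, and each of the 8 had 1 such probe set. The probe set that names Per2 also names 9830107B12Rik, so no value of Per2 is given. Cry2 had a further probe set shared with D930015M05Rik, which was not used. Levels were measured in liver RNA of male C57BL6 mice, with 1 Affymetrix array for each of 12 samples, as log2 probe set values. From 6 weeks of age the mice ate freely for 12 weeks, to 18 weeks of age, from a diet in which fat supplied 10% (low-fat) or 45% (high-fat) of the energy. Each diet was given plain, as control, or with 0.5% by weight of MSX, a food-grade extract of maple syrup enriched in phenols, so that there were 4 groups of 3 arrays. The hour of day at which livers were taken is not given in the sources used here, nor is any fast before it.

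The mammalian clock is a loop of transcription and repression that runs in nearly every cell. ARNTL (also called BMAL1) pairs with CLOCK or, in its place, NPAS2, and the pair binds E-box elements in the Per, Cry and Ciart genes. PER and CRY proteins then gather, return to the nucleus and block the ARNTL and CLOCK pair until they are degraded. In liver the phase of the loop follows feeding time, so a transcript level in a single sample depends on the hour at which the tissue was taken. Arntl transcripts peak at nearly the opposite time of day from those of Per3 and Ciart.

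The sequences below carry letter matches to the kinds of element through which the loop's genes act on one another. They are shown for the 4 members with the lowest unadjusted p in the average extract effect below. Each window runs 5′ to 3′ on the gene's strand, from 250 bases before the annotated start to 50 after it, from RefSeq on build GRCm38.p6. Capitals mark matches to an E-box (CACGTG), a D-box bound by DBP, TEF, HLF and NFIL3 (TTATGNAA), or the half-site bound by ROR and REV-ERB receptors (AGGTCA), searched on both strands. The matches did not overlap one another. They are matches of letters and not measured sites.
Arntl, chr7:113207261-113207560, plus strand: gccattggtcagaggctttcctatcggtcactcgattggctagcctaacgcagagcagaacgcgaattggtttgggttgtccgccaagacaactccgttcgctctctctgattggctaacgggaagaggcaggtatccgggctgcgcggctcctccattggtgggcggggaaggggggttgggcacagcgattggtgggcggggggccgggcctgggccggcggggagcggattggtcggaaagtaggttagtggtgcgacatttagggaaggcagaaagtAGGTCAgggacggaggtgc
Per3, chr4:151044616-151044915, minus strand: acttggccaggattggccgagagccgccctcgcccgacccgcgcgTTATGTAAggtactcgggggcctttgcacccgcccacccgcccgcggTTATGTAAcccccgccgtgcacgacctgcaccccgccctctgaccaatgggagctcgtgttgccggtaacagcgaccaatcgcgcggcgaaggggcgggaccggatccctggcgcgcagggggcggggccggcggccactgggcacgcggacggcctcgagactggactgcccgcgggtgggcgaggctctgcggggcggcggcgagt
Cry1, chr10:85185005-85185304, minus strand: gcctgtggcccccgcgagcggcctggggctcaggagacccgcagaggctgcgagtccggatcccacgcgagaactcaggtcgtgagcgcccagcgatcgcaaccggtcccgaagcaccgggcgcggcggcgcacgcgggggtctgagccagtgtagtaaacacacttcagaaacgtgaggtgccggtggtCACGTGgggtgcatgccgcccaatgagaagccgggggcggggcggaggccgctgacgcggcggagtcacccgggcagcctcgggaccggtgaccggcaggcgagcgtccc
Ciart, chr3:95882179-95882478, minus strand: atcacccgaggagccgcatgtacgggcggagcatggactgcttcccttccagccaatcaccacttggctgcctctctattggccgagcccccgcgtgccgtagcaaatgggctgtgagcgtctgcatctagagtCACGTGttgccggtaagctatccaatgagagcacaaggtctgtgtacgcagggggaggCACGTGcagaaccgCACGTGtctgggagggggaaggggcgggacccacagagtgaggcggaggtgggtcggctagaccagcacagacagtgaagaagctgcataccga

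Counted from the annotated start, the Ciart window held 3 E-boxes, at −116, −58 and −44, and the Cry1 window held 1, at −60. The Per3 window held no CACGTG and instead 2 D-boxes, at −205 and −158. The Arntl window shown, 1 of 2 that RefSeq gives for this gene, held the receptor half-site at position 32, after the start. The other Arntl window held no match to any of the elements. RefSeq windows were found for 8 of the 9 members, 12 windows in all. Of these 12, 3 held an E-box (Per1, Cry1 and Ciart), against 7.15% of all 32851 windows of 300 bases. A D-box stood in 2 (Per1 and Per3), against 3.38%, and an AGGTCA half-site in 3 (Arntl, Clock and Per1), against 16.3%. Windows with 3 or more E-boxes, as in Ciart, made up 0.0883% of all windows. No match was found in the windows of Npas2 and Cry2, which says only that these letters are not within them.

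The arrays were alike in scale, with medians between 4.68 and 4.75, and any pair of arrays correlated at 0.973 to 0.984. All 10 hepatocyte markers (Alb, Apoa1, Ttr and others) were at or above 9.53 in every array, and their mean per array lay between 12.41 and 12.60. High-fat control replicate 1 had the highest mean of all 12 arrays for 4 of 5 lists of other liver cells. For stellate cell markers that mean was 8.18, against 6.91 to 7.47 in the 9 arrays of the other groups, and for macrophage markers it was 7.94 against 7.09 to 7.70. The lowest macrophage mean of the 12 arrays, 6.77, was also in a high-fat control array. In bulk liver, fewer cells of a type and less RNA per cell cannot be told apart. The arrays within a group are biological replicates by their labels.

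Values below are log2 levels in replicates 1, 2 and 3 of a group, in that order. In the activator arm, Arntl had the widest separation of group means. Arntl was at 5.43, 5.43 and 5.77 in the low-fat controls and at 4.68, 5.23 and 5.06 in the low-fat MSX arrays. In the high-fat controls it was at 5.77, 5.70 and 5.15, and in the high-fat MSX arrays at 5.28, 5.42 and 5.09. The low-fat groups did not overlap, and on the high-fat diet control replicate 3 lay among the MSX arrays. The group means fell in the order low-fat control (5.54 ± 0.19, SD, n = 3), high-fat control (5.54 ± 0.34), high-fat MSX (5.26 ± 0.17) and low-fat MSX (4.99 ± 0.28), and no neighbours in that order differed by more than the larger of their SDs.

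Clock, the partner of ARNTL, had the smallest range of the 8 members over the arrays. It was at 9.30, 9.22 and 9.29 in the low-fat controls and at 9.19, 8.98 and 9.11 with MSX. In the high-fat controls it was at 9.15, 9.40 and 9.37, and in the high-fat MSX arrays at 9.13, 9.50 and 9.17. The low-fat groups did not overlap, though by a narrow margin, and the high-fat groups did. Means ran from high-fat control (9.31 ± 0.14) over low-fat control (9.27 ± 0.04) and high-fat MSX (9.27 ± 0.21) to low-fat MSX (9.10 ± 0.11), each within the larger SD of its neighbour.

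Npas2, which can stand in for CLOCK, was at 4.39, 4.56 and 5.28 in the low-fat controls and at 4.87, 4.52 and 4.74 with MSX on that diet. Its high-fat controls were at 4.85, 4.98 and 4.80 and its high-fat MSX arrays at 4.75, 4.70 and 4.73. Low-fat control replicates 1 and 3 were the lowest and the highest of the 12 arrays, so the low-fat control SD was 0.47, while the high-fat MSX arrays had an SD of 0.03. The high-fat groups did not overlap, by a narrow margin. The 4 means, from 4.71 to 4.87, followed one another by less than the larger SD, in the same order as for Clock.

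In the repressor arm, Per1, the Period gene that also answers acutely to hormonal signals, was at 8.19, 8.31 and 8.57 in the low-fat controls and at 8.13, 8.42 and 8.11 with MSX. In the high-fat controls it was at 8.08, 8.35 and 8.09, and in the high-fat MSX arrays at 7.95, 8.06 and 8.26. All 4 groups overlapped, and their means ran from low-fat control (8.36 ± 0.20) over low-fat MSX (8.22 ± 0.17) and high-fat control (8.17 ± 0.15) to high-fat MSX (8.09 ± 0.16), each step within the SD.

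Per3, a Period gene whose loss is tolerated by the mouse clock, was at 7.56, 7.69 and 7.18 in the low-fat controls and at 7.87, 7.77 and 7.63 in the low-fat MSX arrays. On the high-fat diet it was at 7.46, 7.14 and 7.27 in the controls and at 7.71, 7.46 and 7.34 with MSX. On each diet the highest array was an MSX array and the lowest a control array, and the groups overlapped. Its mean was highest in low-fat MSX (7.76 ± 0.12), followed by high-fat MSX (7.51 ± 0.19), low-fat control (7.48 ± 0.26) and high-fat control (7.29 ± 0.16). The step from low-fat to high-fat MSX was larger than either SD and the others were not.

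Cry1, the stronger of the cryptochrome repressors of ARNTL and CLOCK, was at 6.04, 6.14 and 5.52 in the low-fat controls and at 5.86, 6.01 and 6.57 with MSX. In the high-fat controls it was at 5.47, 5.63 and 4.90, and in the high-fat MSX arrays at 5.81, 5.75 and 5.75. All high-fat MSX arrays lay above all high-fat controls and below all low-fat MSX arrays. The order of the means was low-fat MSX (6.15 ± 0.38), low-fat control (5.90 ± 0.33), high-fat MSX (5.77 ± 0.04) and high-fat control (5.33 ± 0.39), and the last step alone was larger than the SDs.

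Cry2, the other cryptochrome repressor, was at 7.28, 7.07 and 7.32 in the low-fat controls and at 7.41, 7.47 and 7.01 with MSX. Its high-fat controls were at 7.13, 7.03 and 6.92 and its high-fat MSX arrays at 7.17, 7.25 and 7.10. Groups overlapped in each comparison of diet or extract. The order of the means was that of Cry1, from 7.30 ± 0.25 in low-fat MSX to 7.03 ± 0.10 in the high-fat controls, again with the last step alone beyond the SDs.

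Ciart, which encodes the repressor CHRONO and binds ARNTL directly, was at 7.70, 6.61 and 7.17 in the low-fat controls and at 7.83, 8.54 and 7.31 with MSX. In the high-fat controls it was at 7.08, 7.96 and 7.44, and in the high-fat MSX arrays at 7.73, 7.63 and 8.13. The 12 arrays spanned 1.93 on the log2 scale, the widest of the 8 members, and groups overlapped in each comparison. Means ran from low-fat MSX (7.89 ± 0.62) over high-fat MSX (7.83 ± 0.26) and high-fat control (7.49 ± 0.44) to low-fat control (7.16 ± 0.55), each step within the larger SD.

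**Figure D1:**
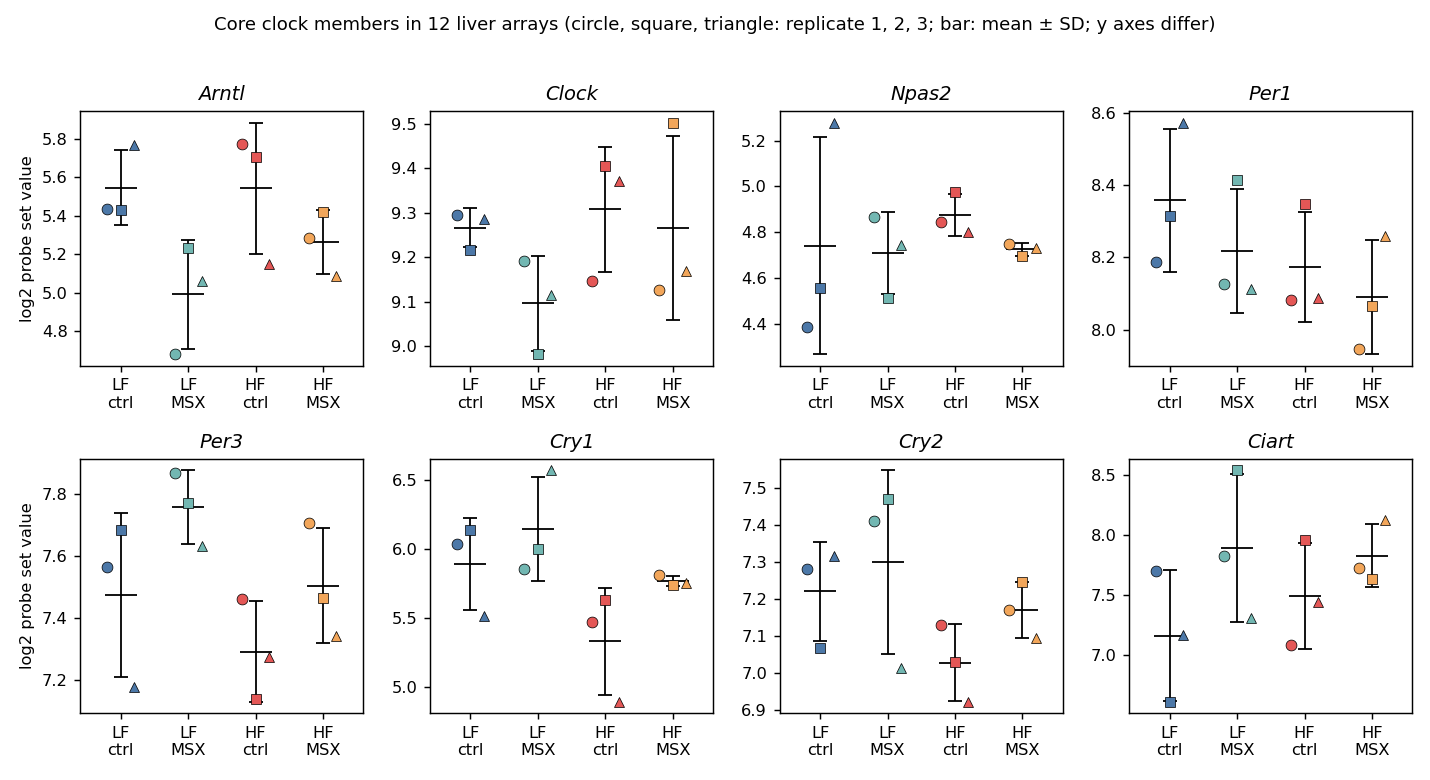
Log2 probe set values (y axis, a separate scale for each gene) of the 8 measured clock members in low-fat (LF) and high-fat (HF) control (ctrl) and MSX groups, with symbols for replicates 1 to 3, a dash for the group mean and whiskers of 1 SD (n = 3). Arntl values of the low-fat MSX arrays all lie below those of the low-fat controls, while Ciart spans 1.93 with overlapping groups.

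The spread between arrays of the same group differed among the members. Ciart had a residual SD of 0.48 on the log2 scale, at the 98.4th percentile of all 22180 genes, and Cry1 followed with 0.32, at the 89.6th. Arntl and Npas2 each had 0.26, at the 76.3rd and 76.5th percentiles, and Per3 had 0.19, at the 50.4th. Per1 had 0.17, Cry2 0.16 and Clock 0.14, below the median of all genes (0.19). Measured only against genes of like mean level, Ciart was at the 98.9th percentile, Cry1 at the 93.3rd, and the other 6 members between the 48.9th and the 76.7th. By mean level, Npas2 (4.76) and Arntl (5.34) were near the middle of all genes, at the 43.3rd and 53.9th percentiles. The remaining members were at the 60.8th (Cry1) or above.

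The comparison of MSX with control arrays addressed the response to the extract. Averaged over both diets, Arntl lay below the controls and Ciart, Cry1 and Per3 above them, but 0 of the 8 members passed the test over all genes (limma, Benjamini-Hochberg adjusted p under 0.05), which 0.261% of all genes did. At an unadjusted p under 0.05 there were 4 of 8, against 9.66% of all genes. The members were chosen with earlier results of these data known, so their counts are descriptions and not a test of the list. The count of 4 fell to 1 without replicate 3 of either control group, and to 2 without low-fat MSX replicate 2 or any 1 of the 3 high-fat MSX arrays. The median size of the difference was 0.18 over the members and 0.09 over all genes. Arntl had a log2 difference of −0.41 (SE 0.13, limma adjusted p = 0.298), and its unadjusted p was 0.00791. For Ciart the difference was 0.53 (SE 0.23, adjusted p = 0.475), for Cry1 0.34 (SE 0.16, adjusted p = 0.51) and for Per3 0.25 (SE 0.11, adjusted p = 0.484). Clock, Npas2, Per1 and Cry2 lay between −0.11 and 0.11, with adjusted p of at least 0.766. The 6 MSX and the 6 control arrays overlapped for all 8 members, while they did not for 1.09% of all genes.

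On the low-fat diet, Arntl was at a log2 difference of −0.55 (SE 0.19, limma adjusted p = 0.445) with MSX and Ciart at 0.73 (SE 0.32, adjusted p = 0.595). These 2 of 8 members had an unadjusted p under 0.05, against 8.05% of all genes (0 of 8 without low-fat control replicate 3 or low-fat MSX replicate 1), and 0 of 8 passed the adjusted threshold, against 0.158%. The 95% interval ran from −0.96 to −0.15 for Arntl and from 0.03 to 1.42 for Ciart. Per3 was at 0.28 (interval −0.05 to 0.61), Cry1 at 0.25 (−0.23 to 0.73) and Cry2 at 0.08 (−0.22 to 0.37). Clock was at −0.17 (−0.45 to 0.11), Per1 at −0.14 (−0.45 to 0.17) and Npas2 at −0.03 (−0.44 to 0.37). The groups did not overlap for 2 members, Arntl and Clock, both lower with MSX, against 6.73% of all genes in that direction. That share counts 1 direction only, chosen with the direction of the members known. It is not like the 12.2% given for the high-fat diet, which counts both directions. Single arrays weighed on several of the differences. The Ciart difference was 0.41 without low-fat MSX replicate 2 and 0.45 without low-fat control replicate 2. That of Cry1 was 0.04 without low-fat MSX replicate 3 and 0.06 without low-fat control replicate 3, and that of Per3 was 0.13 without low-fat control replicate 3.

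With MSX on the high-fat diet, Cry1 was at 0.44 (SE 0.22, limma adjusted p = 0.75), Ciart at 0.34 (SE 0.32), Per3 at 0.21 (SE 0.15) and Cry2 at 0.14 (SE 0.14). Arntl was at −0.28 (SE 0.19, adjusted p = 0.832), Npas2 at −0.15, Per1 at −0.08 and Clock at −0.04. The 95% intervals of all 8 included 0, the widest being that of Ciart (−0.36 to 1.03). At an adjusted p under 0.05 there were 0 of 8, against 0.0361% of all genes, and at an unadjusted p under 0.05 also 0, against 6.99%. Groups did not overlap for Cry1, higher with MSX, and Npas2, lower with MSX, against 12.2% of all genes. Without high-fat control replicate 3 the Cry1 difference was 0.22 and the Arntl difference was −0.47. Without high-fat control replicate 1, the array with the highest stellate and macrophage marker means, the Ciart difference was 0.13 and the Arntl difference −0.16, and the part of those cell types in the result was not tested. The Ciart difference was 0.19 without high-fat MSX replicate 3 and 0.57 without high-fat control replicate 2. Per3 was at 0.11 without high-fat MSX replicate 1 and at 0.14 without high-fat control replicate 2.

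The extract comparisons on the low-fat and the high-fat diet share no arrays, so their signs can be set side by side. All 8 members had the same sign on both diets, against 55% of all 22180 genes. The members belong to 1 loop and share arrays, so these are not 8 independent signs. They were also chosen with earlier results of these data known. Arntl, Clock and Npas2 were below 0 on both, as was Per1, while Per3, Cry1, Cry2 and Ciart were above 0 on both. The signs of Arntl, Per3, Cry1 and Ciart held on both diets with each array left out in turn. Those of Npas2 and Cry2 on the low-fat diet and of Clock and Per1 on the high-fat diet turned in at least 1 such case. The difference of the extract effects between diets did not pass for any member (0 of 8, lowest limma adjusted p = 0.985), nor for any of the 22180 genes (0%). At an unadjusted p under 0.05 that difference counted 0 of 8 members and 5.09% of all genes. For Arntl it was 0.27 with a 95% interval of −0.30 to 0.85, and for Ciart −0.39 with an interval of −1.38 to 0.59. With 1 array left out it ran from 0.08 (without high-fat control replicate 3) to 0.39 for Arntl. For Ciart it ran from −0.69 (without low-fat MSX replicate 3) to −0.07 (without low-fat MSX replicate 2).

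**Figure D2:**
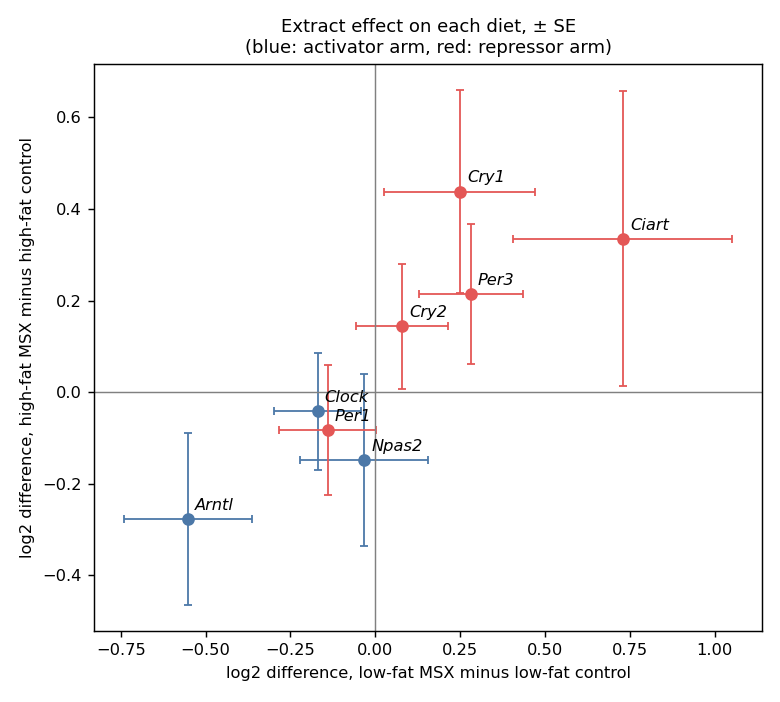
Log2 difference of MSX minus control on the low-fat diet (x axis) and on the high-fat diet (y axis) for the 8 members, with whiskers of 1 SE from limma, blue for the activator arm and red for the repressor arm. All 8 points lie in the quadrants of equal sign, Arntl at −0.55 and −0.28 and Ciart at 0.73 and 0.34.

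The comparison of high-fat with low-fat arrays addressed the response to the diet. Cry1 had the lowest unadjusted p of the members for the diet without extract, and no member passed. Without extract, Cry1 was at a log2 difference of −0.56 (SE 0.22, limma adjusted p = 0.663), with an interval of −1.04 to −0.08. It was the 1 of 8 members with an unadjusted p under 0.05, against 6.78% of all genes (3 of 8 without low-fat control replicate 3, but 0 of 8 without replicate 1 or 2 of that group or high-fat control replicate 3), and 0 of 8 passed the adjusted threshold, against 0.018%. Arntl was at 0.00 (interval −0.41 to 0.40), Ciart at 0.33 (−0.36 to 1.03), Per3 at −0.18, Per1 at −0.19 and Cry2 at −0.19. No member's groups were free of overlap, against 11.4% of all genes. Without high-fat control replicate 3 the Cry1 difference was −0.34. With 1 array left out in turn, the Ciart difference ran from 0.06 (without low-fat control replicate 2) to 0.60 (without low-fat control replicate 1). Per3 ran from −0.33 (low-fat control replicate 3 left out) to −0.08 (low-fat control replicate 2 left out).

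With extract in both diets, Cry1 was at −0.37 (SE 0.22, limma adjusted p = 0.999) and was the 1 member whose groups did not overlap, lower on the high-fat diet, against 4.76% of all genes in that direction. That share too counts 1 direction only, chosen with the direction of Cry1 known. Without low-fat MSX replicate 3 Cry1 was at −0.16. Arntl was at 0.27, Per3 at −0.25 and Ciart at −0.06, each with an interval that included 0, and Arntl was at 0.12 without low-fat MSX replicate 1. None of the 8 members and 0% of all genes passed by limma, and at an unadjusted p under 0.05 there were 0 of 8, against 4.56% of genes. Averaged over both states, Cry1 was at −0.47 (SE 0.16, adjusted p = 0.681, unadjusted p = 0.0106) and Per3 at −0.22 (SE 0.11, adjusted p = 0.853). On that average 0 of 8 members passed, against 0.0225% of all genes, and 1 of 8 had an unadjusted p under 0.05, against 5.94%, a count that ran up to 3 (without low-fat control replicate 3). The 6 high-fat and the 6 low-fat arrays overlapped for all 8 members, while they did not for 0.325% of genes. The diet comparisons without and with extract had the same sign for 6 of 8 members, all but Arntl and Ciart, against 50.9% of all genes. Here too the signs of the members are not independent of one another.

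**Figure D3:**
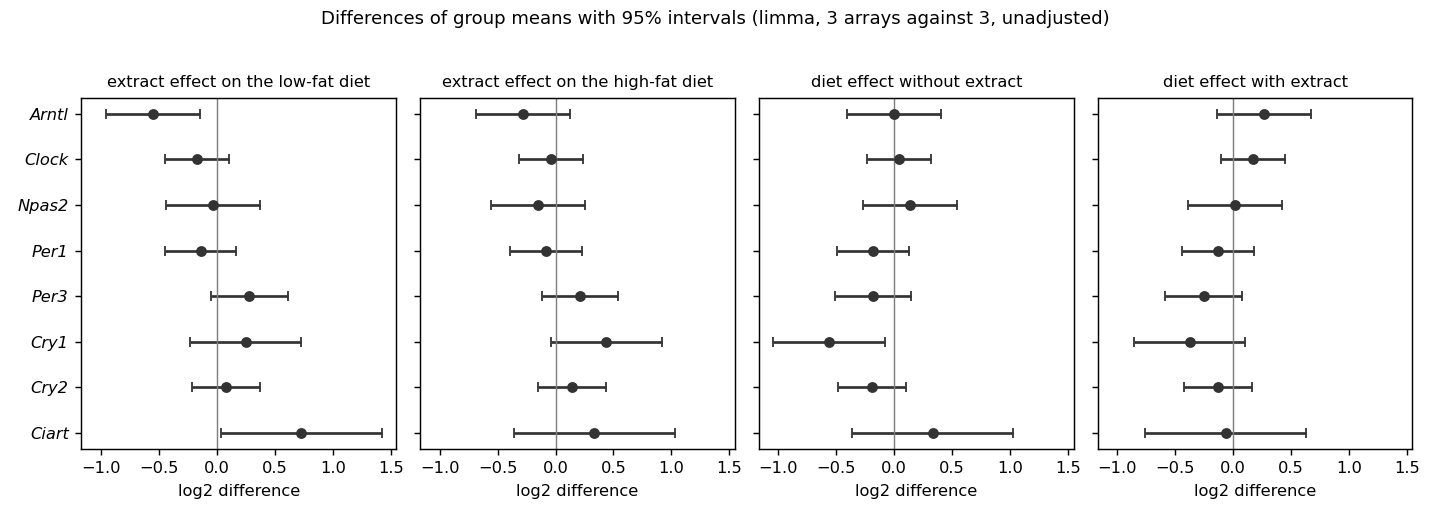
Log2 differences of group means (x axis) for the 8 members in 4 comparisons of 3 arrays against 3, with 95% intervals from limma that are not adjusted for the number of genes. Intervals exclude 0 for Arntl and Ciart with MSX on the low-fat diet and for Cry1 with the high-fat diet without extract.

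Across the 12 arrays, with the differences between groups included, most pairs of 1 activator and 1 repressor had an r below 0. These are descriptions, since the values share arrays and groups and the pairs share genes. The share of pairs below 0 among all genes was not computed. Of the 15 pairs of 1 activator and 1 repressor, 13 had a Pearson r below 0, with a median of −0.25. All 3 pairs within the activator arm were above 0 (0.24 to 0.31), as were 9 of 10 within the repressor arm (median 0.16). Per3 stood most clearly apart from the activators, with r of −0.60 to Arntl (Spearman rho −0.50), −0.60 to Clock (rho −0.58) and −0.57 to Npas2 (rho −0.45). Without the 2 arrays farthest from the median of the activator, r was −0.48, −0.66 and −0.51. Per3 and Cry1 had an r of 0.60 (rho 0.70), and 0.69 without the 2 arrays farthest in Per3. Per1 stood with the activators Arntl (0.37) and Npas2 (0.32), but the latter was −0.31 without the 2 arrays farthest in Npas2.

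Taken as deviations from the group means, which leave out diet and extract, 9 of the 15 pairs between arms were below 0, with a median of −0.00401. Within the repressor arm 5 of 10 were above 0. Within the activator arm 2 pairs were above 0 and 1 below, Arntl with Clock (r −0.16, rho −0.28). Without the 2 arrays farthest in Arntl that r was 0.13. Per3 was opposite to Npas2 (r −0.60, but −0.27 without the 2 arrays farthest in Npas2) and lay opposite to Per1 (r −0.69, rho −0.57, and −0.66 without the 2 arrays farthest in Per1). Arntl and Per3 were at −0.24. Single arrays stood out in several members at once. In low-fat control replicate 3, Npas2 and Per1 were the highest of the 12 arrays, Arntl ranked second highest and Per3 second lowest. Low-fat MSX replicate 1 had the lowest Arntl and the highest Per3.

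**Figure D4:**
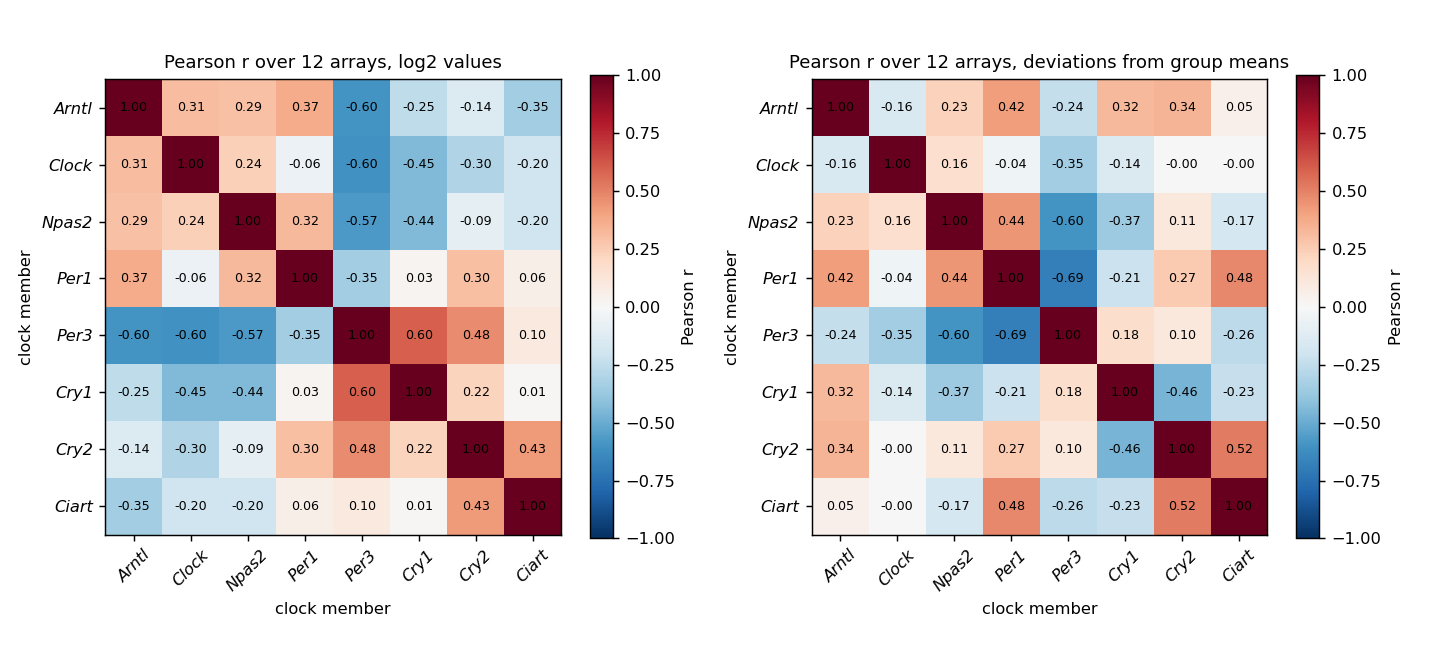
Pearson r between clock members over 12 arrays, from log2 values (left) and from deviations from the group means (right), both axes listing the 8 members and the colour giving r from −1 to 1. Per3 is below 0 with all 3 activators on the left (−0.60, −0.60 and −0.57) and at −0.69 with Per1 on the right.

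Genes whose levels followed those of a member most closely were sought among 10552 genes with a mean above the median of all genes, leaving out Gm and Rik names. The closest to Arntl over the 12 arrays were Cep170b (r 0.88), Gadd45b, a stress-induced growth arrest gene (0.84), and Jund, a subunit of the AP-1 factor (0.83). The most opposite were Ndufa9, a subunit of respiratory complex I (−0.91), Akr1c14, an aldo-keto reductase (−0.84), and Txndc5, a disulfide isomerase of the endoplasmic reticulum (−0.83). Closest to Per3 were Olfml1 (0.89), Rbl2, a pocket protein related to the retinoblastoma protein (0.88), and Rnf13, a ubiquitin ligase (0.87), and most opposite AW011738 (−0.87), Rassf2 (−0.83) and Ubxn4, a protein of endoplasmic reticulum quality control (−0.83). These are the extremes of 10552 values, and without the 2 arrays farthest in the member they lay between 0.69 and 0.88 in size. None of the 12 is a gene of the clock lists used here.

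The other clock genes were counted in 5 lists that together named 56 genes, of which 48 were measured under 1 symbol. The nuclear receptor loop, in which REV-ERB receptors repress and ROR receptors activate Arntl, had 4 of 5 genes measured, and 0 passed in any comparison by limma. With MSX on both diets Nr1d2, a REV-ERB gene, was at 0.25 (SE 0.09, adjusted p = 0.362) and Nr1d1 at 0.47 (adjusted p = 0.662). Nr1d1 spread widely in the low-fat MSX arrays, at 9.48, 9.22 and 7.59, and in the low-fat controls at 8.02, 8.02 and 9.28. The median of the 4 genes was 0.12 for the average extract effect, against −0.0014 for all genes, and at most 1 of the 4 had an unadjusted p under 0.05 in a comparison, against 4.56% to 9.66% of all genes over the 7 comparisons.

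Of the 6 output factors, which act through D-boxes and E-boxes, 1 rose and 0 fell in the average extract effect, against 0.117% of all genes that rose and 0.144% that fell, and the list's median was 0.27. The list was chosen with earlier results of these data known, so its counts are descriptions and not a test of the list. The gene that rose was Bhlhe41, which encodes DEC2, a repressor that competes at E-boxes, and it rose by 0.88 (SE 0.10, limma adjusted p = 0.00198). Its 6 MSX arrays, at 5.80 to 6.48, all lay above its 6 control arrays, at 5.15 to 5.56, as those of 0.631% of all genes did. The call on the average held with each of the 12 arrays left out in turn. For the high-fat diet alone Bhlhe41 passed (1.11, adjusted p = 0.0149), but not without high-fat control replicate 2 (adjusted p = 0.0624) or 3 (0.0909) or high-fat MSX replicate 1 (0.0813) or 2 (0.115). Its difference was between 1.05 and 1.20 with any 1 high-fat array left out. On the low-fat diet it was at 0.65 (adjusted p = 0.144). Its paralog Bhlhe40 was at 0.43 in the average (adjusted p = 0.101) and Dbp, a D-box activator under direct E-box control, at 0.36 (adjusted p = 0.304). Tef was at 0.19, Hlf at −0.01 and Nfil3 at −0.26. At an unadjusted p under 0.05 by limma there were 3 of 6 in the average, against 9.66% of all genes. On the low-fat diet there were 4 of 6, against 8.05%, and on the high-fat diet 2 of 6, against 6.99%.

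Bhlhe41 passed in no other comparison, and the other 5 output factors passed in none.

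Of 10 measured genes of clock protein turnover and kinases, 0 passed in any of the 7 comparisons by limma, and at an unadjusted p under 0.05 there were at most 1 of 10, against 4.56% to 9.66% of all genes. Usp2, a ubiquitin protease, was at 0.50 with MSX on the low-fat diet (adjusted p = 0.538). Of 15 measured cofactors of the loop, 0 passed, and 4 had an unadjusted p under 0.05 with MSX on the low-fat diet (8.05% of all genes) and 0 on the high-fat diet (6.99%). Among the 4 was Kat2b, an acetyltransferase, at 0.37 (limma adjusted p = 0.423). This list too was chosen with earlier results of these data known, so its counts are descriptions.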

How the data were processed

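Liver RNA from 12 samples was measured on Affymetrix mouse arrays. Per the submitters' processing notes, the authors made the deposited log2 values per probe set with Transcriptome Analysis Console; for its version and normalization, nothing is given in the sources used here. These values were used as they stood, with every array kept. The platform annotation gave 1 symbol for 23521 of 41345 probe sets and several for 1814, and 16010 were unnamed here. The probe set of highest mean stood for each of 22180 genes.

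With limma 3.58.1 (R 4.3.3), 4 group means were fitted over the 12 arrays and 7 contrasts drawn, with eBayes at its defaults. Benjamini-Hochberg adjustment ran over the 22180 genes of a contrast (threshold 0.05), and the procedure was tested on simulated data. Differences are on the log2 scale with moderated SE, and intervals cover 95% without adjustment. Precision is limited by the few arrays: permuting 3 against 3 exactly gives no p below 0.1. The members, the other clock lists and the rule for genes most like Arntl and Per3 (the 3 of highest and the 3 of lowest Pearson r) were chosen with earlier results of these data known. Alternatives were each array left out, the replicate number as a block, the 2 groups alone, quantile normalization, a filter on dim genes, the mean of a gene's probe sets and a trended robust prior.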

Additional observations from a re-analysis of the deposited data

How the results depend on the processing

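In all alternatives run, 0 of the measured clock members passed the threshold in any of the 7 comparisons. The mean of probe sets could not change a member's values, since each measured member had 1 probe set of 1 symbol. The lowest adjusted p was 0.141, for the average extract effect with the filter on dim genes, which tests 11090 genes and leaves out Npas2. At an unadjusted p under 0.05 the average extract effect had 1 to 4 members over its 17 alternatives, the low-fat extract effect 0 to 2 and the high-fat one 0 to 1, and the diet effect 0 to 3 without extract and 1 to 3 on average. With the replicate number as a block (replicate block), 0 members passed the adjusted threshold in each comparison. At an unadjusted p under 0.05 that setting had 2 members in the average extract effect, where Arntl was at −0.41 (limma adjusted p = 0.344). The labels do not say that a number marks anything shared, and deviations of same-numbered arrays correlated between −0.13 and 0.11, with 2 of 18 pairs over 0.1. Diet effects of single members were recomputed in part, for Arntl, Per3, Cry1 and Ciart, and not for the other members. Among the values recomputed, signs turned where 1 array was left out, and the cause was not tested: with MSX on the low-fat diet Npas2 ran from −0.21 to 0.23 and Cry2 from −0.00844 to 0.22. With MSX on the high-fat diet Clock ran from −0.16 to 0.0279 and Per1 from −0.17 to 0.00497. With diet, Arntl ran from −0.12 to 0.19 without extract and Ciart from −0.35 to 0.26 with it. Bhlhe41 on the high-fat diet lost its call with the 2 groups alone (1.11, adjusted p = 0.108).

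Counts over all genes moved more. The trended robust prior called 11, 28, 77, 151 and 11 genes and the filter on dim genes 11, 19, 71, 173 and 11, against 4, 8, 35, 58 and 5, for the diet without extract, the extract on high-fat and on low-fat diets, the average extract and the average diet effect. For the extract on high-fat and low-fat diets the counts were 2 and 10 with the 2 groups alone and 5 and 20 with the block, and the latter was 23 with the mean of probe sets. Without 1 array the 5 counts ran from 1 to 5, 2 to 6, 6 to 28, 34 to 63 and 1 to 7.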

Other observations

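Of 15 liver genes known to follow the clock, 14 were measured and 0 passed the limma threshold in any comparison, while 8 of the 14 had an unadjusted p under 0.05 in the average extract effect, against 9.66% of all genes. Of these 8, Alas1, Mt1 and Tfrc were lower with MSX and the others higher. The list was chosen with earlier results of these data known, so the count is a description and not a test of the list. It was not recomputed with arrays left out. Upp2, a uridine phosphorylase, was at 0.48 with MSX averaged over diets (SE 0.10, adjusted p = 0.0635), and Tfrc, the transferrin receptor, at −0.42 (SE 0.10, adjusted p = 0.107). Lpin1, a phosphatidate phosphatase, was at 8.83, 7.81 and 8.60 in the low-fat controls and at 9.43, 10.53 and 10.87 in the low-fat MSX arrays, a log2 difference of 1.86 (SE 0.37, adjusted p = 0.0842). On the high-fat diet its difference was −0.23, and the difference of the extract effects was −2.09 (SE 0.52, adjusted p = 0.74). Rgs16, a regulator of G protein signalling, was at 11.07, 11.65 and 7.78 in the low-fat MSX arrays, so that replicate 3 was the lowest of all 12 arrays while replicates 1 and 2 were the highest. In that array Nr1d1 was also the lowest of the 12, at 7.59, and Cry1 the highest, at 6.57.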
